A study of Mus musculus with 8 samples.

Results

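A set of 10 genes of the p53 pathway and of cell cycle arrest was followed in whole mouse hearts, chosen by gene symbol: Cdkn1a, Cdkn1b, Cdkn2c, Cdkn2d, Ccng1, Mdm2, Trp53, Trp53inp1, Phlda3 and Bax. All 10 were found among the 22518 genes of the table, and all 10 passed the filter for testing. The series compared 4 heart libraries labelled PHD2/3 endothelial knockout with 4 labelled wild type, from C57BL/6 mice at postnatal day 12 (P12). PHD2 and PHD3 are oxygen-dependent enzymes that mark HIF-alpha proteins, the hypoxia-inducible transcription factors, for destruction. The labels name neither the Cre driver nor the deleted exons. Nor do they state whether libraries stem from different mice, and the p-values below therefore reflect the spread among libraries, which may be technical.

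The transcription factor p53, encoded by Trp53, is held at a low level by the ubiquitin ligase MDM2 and accumulates after DNA damage and other stresses. Its level is set mainly by protein turnover, so its activity is usually read from its target genes and not from its mRNA. Cdkn1a, Ccng1, Mdm2, Phlda3, Trp53inp1 and Bax are such targets. Cdkn1a encodes p21, which blocks cyclin-dependent kinases (CDK), and it is also switched on by signals that do not pass through p53. Cdkn1b (p27) belongs to the same CIP/KIP family, and Cdkn2c (p18) and Cdkn2d (p19) to the INK4 family, which binds CDK4 and CDK6. Around birth p21 and p27 accompany the exit of heart muscle cells from the cell cycle. The question asked of the data was whether Cdkn1a moved together with the other p53 targets.

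Cdkn1a, Ccng1 and Phlda3 were higher in the knockout hearts, and no member was lower at the threshold. Cdkn1a rose 2.09-fold, Ccng1 1.64-fold and Phlda3 1.44-fold as ratios of mean FPKM. The test called 3 of the 10 members raised, 0 lowered and 7 neither, against 6.15% raised and 6.01% lowered among the 11390 genes tested (12.2% in either direction). At an unadjusted p under 0.05, 4 members were higher and 0 lower, where 14.9% of all tested genes were higher and 14.8% lower. The members were chosen with earlier results of these data known, so these shares are not independent evidence. A gene was called at an adjusted p under 0.05 in limma, which was fitted on log2(FPKM + 1) over all tested genes with Benjamini-Hochberg adjustment. The count of raised members was 1, Cdkn1a alone, without wild type replicate 2 or knockout replicate 2, and also with a replicate block or with no moderation of the variance. The hearts are mixed tissue, in which fewer cells of a type and less RNA per cell cannot be told apart.

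Of the members, 2 carry a match to the p53 consensus element just before a start site, and their promoter sequences are shown first with those of Mdm2 and Phlda3, whose values were also separate between the groups. Each sequence holds the 250 bases before a RefSeq transcription start on GRCm38.p6, read 5′ to 3′ on the gene's strand. Capitals mark every half-site that is part of a match. Cdkn1a at chr17:29090729-29090978 on the plus strand and Ccng1 at chr11:40755287-40755536 on the minus strand hold the element. Mdm2 at chr10:117710759-117711008 on the minus strand and Phlda3 at chr1:135765835-135766084 on the plus strand have no match in this window.
Cdkn1a: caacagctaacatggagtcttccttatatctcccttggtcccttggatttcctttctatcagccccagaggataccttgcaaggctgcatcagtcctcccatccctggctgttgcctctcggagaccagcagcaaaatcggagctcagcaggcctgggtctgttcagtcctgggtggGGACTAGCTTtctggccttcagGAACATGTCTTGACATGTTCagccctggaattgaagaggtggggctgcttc
Ccng1: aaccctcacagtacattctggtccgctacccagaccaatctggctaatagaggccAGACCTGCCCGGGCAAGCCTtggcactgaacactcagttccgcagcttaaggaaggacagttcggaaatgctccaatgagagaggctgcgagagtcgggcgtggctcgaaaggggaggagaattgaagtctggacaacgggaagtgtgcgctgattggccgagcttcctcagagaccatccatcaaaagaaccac
Mdm2: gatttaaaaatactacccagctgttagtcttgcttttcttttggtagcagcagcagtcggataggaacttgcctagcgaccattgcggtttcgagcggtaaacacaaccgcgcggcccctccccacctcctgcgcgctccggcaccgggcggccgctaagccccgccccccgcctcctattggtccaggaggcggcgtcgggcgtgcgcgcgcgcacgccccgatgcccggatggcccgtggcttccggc
Phlda3: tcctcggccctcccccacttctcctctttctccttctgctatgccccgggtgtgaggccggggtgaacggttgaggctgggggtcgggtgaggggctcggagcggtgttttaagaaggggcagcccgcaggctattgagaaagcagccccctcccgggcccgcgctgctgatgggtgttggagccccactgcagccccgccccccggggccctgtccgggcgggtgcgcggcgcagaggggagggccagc

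The search asked for 2 copies of the p53 half-site consensus of 10 bases, 0 to 13 bases apart, with at most 1 mismatch in the 20 bases and none at the invariant C and G. The consensus reads the same on both strands. The tightest match in Cdkn1a, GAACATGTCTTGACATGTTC, lies 51 to 32 bases before the upstream RefSeq start and has 1 mismatch and no spacer. A second match there shares one half-site with it. The match in Ccng1, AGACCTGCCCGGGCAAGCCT, lies 195 to 176 bases before the start, also with 1 mismatch and no spacer. Of 32851 windows of this length in the table, 0.505% held a match. RefSeq windows were found for 9 of the 10 members (11 windows), and 2 of these genes, Cdkn1a and Ccng1, had a match. The window before the second Cdkn1a start, at chr17:29093519-29093768, had none. Among members without a match, a lone half-site without mismatch stood in the windows of Mdm2, Cdkn2d, Trp53 and Bax. Of all windows, 7.13% held a half-site without mismatch. Bases after the start were not searched, so a missing match speaks only for the window. The hypoxia response core ACGTG or GCGTG, on either strand, stood in 8 of the 11 member windows, against 38.6% of all windows. These 8 were that second Cdkn1a window, both Cdkn2c windows and those of Ccng1, Mdm2, Cdkn1b, Cdkn2d and Bax, so they include members that were not called. The upstream Cdkn1a window and those of Phlda3 and Trp53 did not hold it. The E-box CACGTG also contains these letters. Such matches describe letters in a window and not binding.

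Cdkn1a (chromosome 17, 29090976 to 29100727 in GENCODE M21, which like the authors' processing uses the mm10 assembly) read 50.5, 33.4, 31.03 and 30.2 FPKM in wild type libraries 1 to 4. In knockout libraries 1 to 4 it was at 69.8, 70.9, 67.2 and 95.2 FPKM. Each knockout value lay above each wild type value, with wild type replicate 1 and knockout replicate 4 standing highest in their groups. The mean was 36.3 ± 9.56 FPKM in wild type hearts against 75.8 ± 13.1 FPKM in the knockout (SD, n = 4 each), a log2 change of 1.06 ± 0.17 (SE, limma adjusted p = 0.00551). An exact permutation test, two-sided over all 70 assignments of libraries to groups, gave p = 0.0286, the smallest p it can give. Groups without overlap always give this p, so it adds nothing to the separation already described. By size of rise Cdkn1a took place 102 of the 11390 genes. The annotation places another transcript on the opposite strand at this gene, and whether the quantification used strand is not stated in the sources at hand.

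Ccng1 (chromosome 11, 40748552 to 40755311) encodes cyclin G1, which brings a phosphatase to MDM2 and so feeds back on p53. It was the most abundant member, at 109.9, 109, 131 and 75.5 FPKM in the wild type libraries against 150.5, 176, 163 and 208 FPKM in the knockout libraries. The groups did not overlap, and wild type replicate 4 was lowest and knockout replicate 4 highest. The log2 change was 0.73 ± 0.16 (adjusted p = 0.0205), and 0.48 without both replicates 4 (adjusted p = 0.0241). The call was lost without wild type replicate 2 (adjusted p = 0.0569), without knockout replicate 2 (0.0561), with the replicate block (0.0776) and with unmoderated variances (0.0815).

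Phlda3 (chromosome 1, 135766119 to 135769136) encodes a small lipid-binding protein that restrains AKT at the membrane. Its wild type values were 16.3, 18.96, 19.6 and 20.5 FPKM and its knockout values 28.9, 30.2, 22.4 and 26.8 FPKM. The ranges were again separate, by a narrow margin at knockout replicate 3. The log2 change was 0.50 ± 0.11 (adjusted p = 0.0195). The call was lost under the same 4 settings as that of Ccng1, with adjusted p of 0.0573 to 0.0662.

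Mdm2 (chromosome 10, 117688875 to 117710758), the gene of the ligase that degrades p53 and itself a p53 target, was at 17.02, 15.9, 18.1 and 14.2 FPKM in wild type hearts against 19.01, 19.9, 21.01 and 29.8 FPKM in the knockout. Every knockout value exceeded every wild type value, but 3 of them lay close above the wild type range. The difference of 0.42 ± 0.14 on the log2 scale did not pass the test (adjusted p = 0.0772). It passed without knockout replicate 1 (adjusted p = 0.0485) and was 0.22 without both replicates 4 (adjusted p = 0.131). In all, 4 of 10 members were higher in the knockout hearts with no overlap, against 10.3% of tested genes that were higher in this way and 20.7% without overlap in either direction.

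Trp53inp1 (chromosome 4, 11156431 to 11174379) encodes a stress protein that promotes p53 phosphorylation and autophagy. Its values overlapped, at 5.94, 4.41, 4.88 and 4.75 FPKM in wild type hearts against 4.39, 6.83, 6.07 and 9.45 FPKM in the knockout. Knockout replicate 1 was below the whole wild type range and the other 3 knockout libraries above it (log2 change 0.32 ± 0.18, adjusted p = 0.255). Bax (chromosome 7, 45461697 to 45466898), which forms pores in the outer mitochondrial membrane during apoptosis, was at 24.7, 28.8, 25.7 and 30.3 FPKM in wild type hearts against 35.96, 28.7, 29.2 and 25.4 FPKM in the knockout. Only knockout replicate 1 lay above the wild type range of Bax (log2 change 0.11 ± 0.11, adjusted p = 0.535). Another annotated gene on the same strand overlaps Bax, and how reads were divided between them is not known here.

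Trp53 itself (chromosome 11, 69580359 to 69591873) had wild type values of 12.4, 15.1, 14.2 and 13.5 FPKM. The knockout values were 15.3, 11.001, 11.5 and 8.85 FPKM, with knockout replicate 1 above the wild type range and the other 3 below it. The log2 change was -0.25 ± 0.14 (adjusted p = 0.269), and without knockout replicate 1 it was -0.38 (adjusted p = 0.0433). Of the 18 alternatives run, the omission of that library was the only one in which Trp53 passed the test.

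The CDK inhibitors other than Cdkn1a gave no call in either direction (0 of 3 in limma, and 0 at an unadjusted p under 0.05). Of all tested genes limma called 12.2% in either direction. Cdkn1b (chromosome 6, 134920401 to 134925513) was at 13.7, 13.9, 13.7 and 13.1 FPKM in wild type hearts against 12.5, 12.1, 12.7 and 15.5 FPKM in the knockout (log2 change -0.05 ± 0.09, adjusted p = 0.748). Its wild type libraries lay closest together of any member, while knockout replicate 4 was above and the other 3 knockout libraries below them. Cdkn2c (chromosome 4, 109660876 to 109667189) was at 7.95, 9.64, 11.4 and 11.2 FPKM in wild type hearts against 10.998, 8.26, 9.49 and 7.20 FPKM in the knockout (log2 change -0.15 ± 0.14, adjusted p = 0.521). Cdkn2d (chromosome 9, 21288410 to 21291407) was at 12.8, 17.6, 15.2 and 16.99 FPKM in wild type hearts against 20.7, 15.5, 17.8 and 16.7 FPKM in the knockout (log2 change 0.17 ± 0.12, adjusted p = 0.378). Both INK4 genes were highest in knockout replicate 1 among the knockout libraries, and their groups overlapped. Among CDK inhibitors and pocket proteins outside the 10 members, 0 of 4 tested genes passed in limma, also at an unadjusted p under 0.05. Cdkn1c, an imprinted CIP/KIP gene of that list, was at 11.002 ± 1.55 FPKM in wild type hearts against 8.59 ± 3.31 FPKM in the knockout (adjusted p = 0.296). The pocket protein gene Rbl2 and the phosphatase gene Cdkn3 had adjusted p of 0.434 and 0.931.

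**Figure D1:**
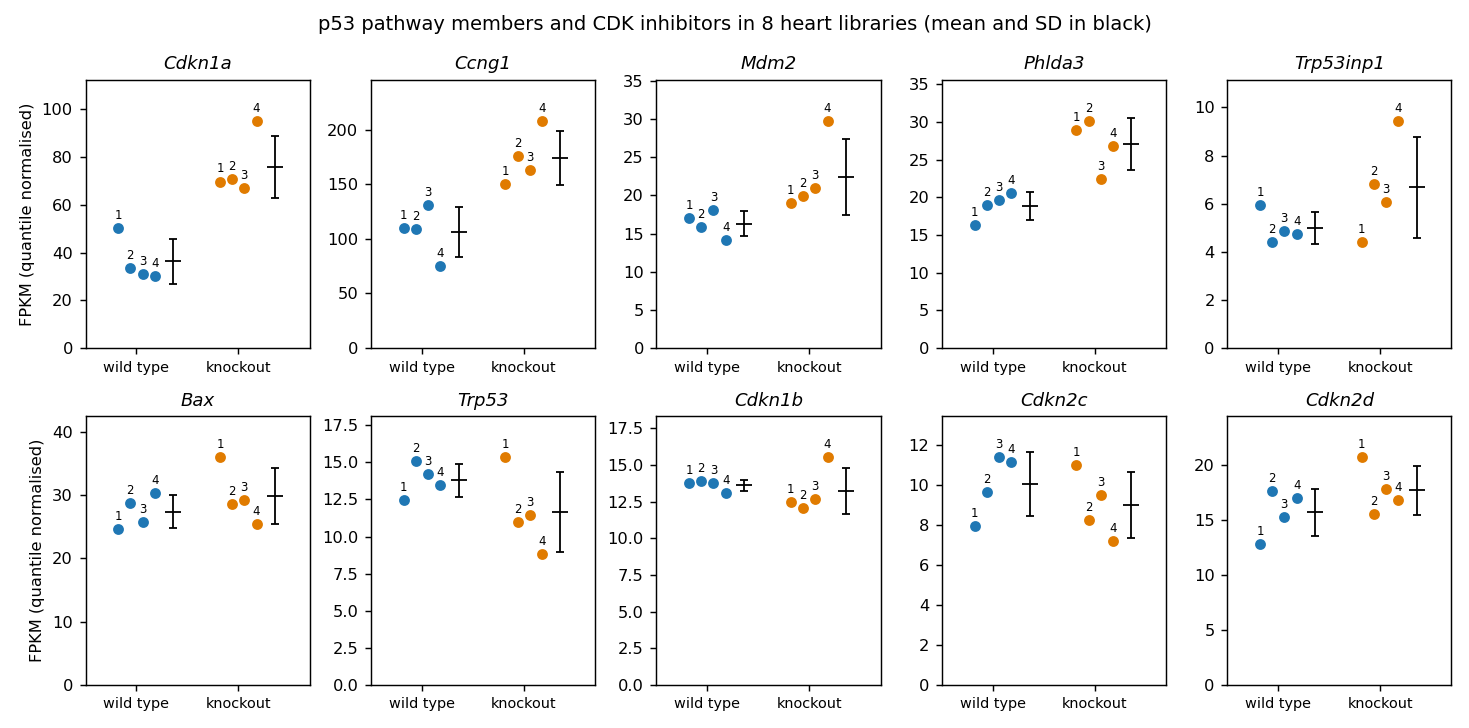
Quantile-normalised FPKM (vertical axes, starting at 0) of the 10 members in 4 wild type (blue) and 4 knockout (orange) heart libraries, with the replicate number above each point and the group mean ± SD in black. Cdkn1a, Ccng1, Mdm2 and Phlda3 are separate between the groups, with Cdkn1a at 30.2 to 50.5 FPKM in wild type hearts against 67.2 to 95.2 FPKM in the knockout, and the other 6 genes overlap.

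Per length of transcript, the wild type order of mean levels in FPKM was Ccng1 (106), Cdkn1a (36.3), Bax (27.4), Phlda3 (18.9), Mdm2 (16.3), Cdkn2d (15.7), Trp53 (13.8), Cdkn1b (13.6), Cdkn2c (10.03) and Trp53inp1 (4.996). Neighbours were separate between Ccng1 and Cdkn1a, Bax and Phlda3, Cdkn1b and Cdkn2c, and Cdkn2c and Trp53inp1, and the ranges of the other neighbours overlapped. Cdkn1a and Bax just touched in wild type hearts, at 30.2 FPKM or more against 30.3 FPKM or less. In the knockout hearts they were apart, at 67.2 FPKM or more against 35.96 FPKM or less. From Bax downwards all neighbours overlapped in the knockout hearts.

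The members did not follow one order across the knockout libraries. Knockout replicate 4 had the highest value of its group for 5 members (Cdkn1a, Cdkn1b, Ccng1, Mdm2 and Trp53inp1) and the lowest for 3 (Cdkn2c, Trp53 and Bax). Knockout replicate 1 was highest for 4 (Cdkn2c, Cdkn2d, Trp53 and Bax) and lowest for 3 (Ccng1, Mdm2 and Trp53inp1). Against the wild type mean on the log2(FPKM + 1) scale, knockout replicate 4 stood at 1.40 for Cdkn1a, 0.99 for Ccng1, 0.84 for Mdm2 and -0.58 for Trp53. The same genes stood at 0.96, 0.52, 0.22 and 0.15 in knockout replicate 1. Without both replicates 4, Cdkn1a (log2 change 0.87, adjusted p = 0.0219) and Phlda3 (0.54, adjusted p = 0.0410) were still called, as was Ccng1.

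**Figure D2:**
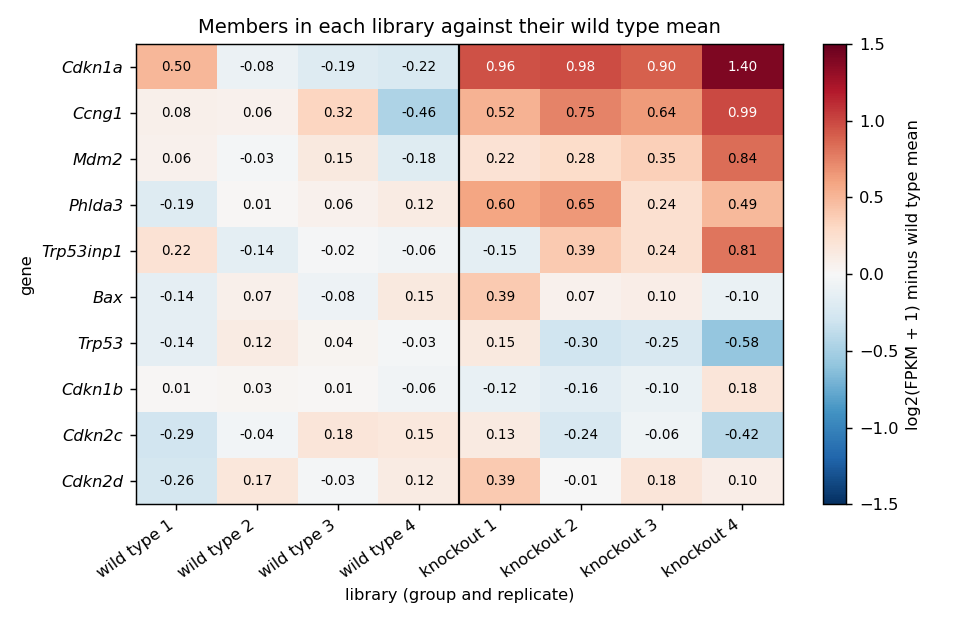
Each cell gives log2(FPKM + 1) of a member in 1 library minus the mean of that gene over the 4 wild type libraries, red above and blue below, with libraries in columns and genes in rows. Cdkn1a, Ccng1, Mdm2 and Phlda3 are positive in all 4 knockout libraries, and Trp53 is at 0.15 in knockout replicate 1 and -0.58 in knockout replicate 4.

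Whether the change of each member differed from that of Cdkn1a was tested on the ratio of the gene to Cdkn1a within each library. The ratio of Ccng1 to Cdkn1a ran from 2.15 to 4.11 in wild type and from 2.14 to 2.46 in knockout hearts, and its log2 change of -0.33 ± 0.21 did not pass the test (adjusted p = 0.175 with unmoderated variances). For Phlda3 the difference from Cdkn1a was -0.56 ± 0.27 (adjusted p = 0.0893). These misses do not show that the genes rose alike, since both estimates lay below that of Cdkn1a with wide errors. That of Mdm2 was -0.64 ± 0.17 (adjusted p = 0.0116) and that of Trp53inp1 -0.73 ± 0.16 (adjusted p = 0.00730). Bax, Cdkn1b, Cdkn2c, Cdkn2d and Trp53 differed by -0.89 to -1.30 on the log2 scale, with adjusted p of 0.00574 to 0.0286. In this fit 7 of 9 members differed from Cdkn1a, against 92.6% of all genes, so the share among members was not above the background. The moderated fit called 8 of 9, Phlda3 included (adjusted p = 0.0246), and 95.8% of all genes. It shrank all genes to nearly 1 common variance (an infinite prior degrees of freedom), and the unmoderated values are therefore the ones given here. The Cdkn1a values enter each ratio, so the ratios are not independent of one another.

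A wider list of 32 other p53 targets was examined next, and 29 of them were abundant enough to test. In this list 3 rose, 0 fell and 26 did not pass the limma test, while at an unadjusted p under 0.05 the counts were 9 higher and 0 lower (14.9% and 14.8% of all tested genes). The raised share was 10.3%, beside 6.15% of all tested genes, and the median log2 change was 0.07, beside -0.01 for all tested genes. This list, too, was chosen with earlier results of these data known. Gadd45a, which p53 also activates, is not counted here. It was kept in the list of stress genes below, and it fell (log2 change -0.97, limma adjusted p = 0.000831). Polk, a DNA polymerase that copies past damaged bases, was at 1.34, 1.24, 1.34 and 1.32 FPKM in wild type hearts against 2.43, 2.26, 2.15 and 2.33 FPKM in the knockout (log2 change 0.51 ± 0.08, adjusted p = 0.00438). These values left a wide gap between the groups. Tnfrsf10b, a death receptor for TRAIL, rose from 1.22 ± 0.0779 FPKM to 1.96 ± 0.298 FPKM (adjusted p = 0.0271). Tigar, a phosphatase that lowers glycolytic flux, rose from 10.6 ± 1.08 FPKM to 14.8 ± 2.20 FPKM (adjusted p = 0.0376), a call that only the omission of knockout replicate 3 among the 8 single omissions left in place. The count was 1, Polk alone, without any single wild type library, without knockout replicate 2, with the replicate block and without both replicates 4, and it was 7 with array weights.

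Most of the list stayed below the threshold. The 3 most abundant targets that did not pass were Ak1 at 199.8 ± 18.5 FPKM in wild type hearts against 189.8 ± 7.74 FPKM in the knockout, Rps27l at 158 ± 17.2 FPKM in wild type hearts against 148 ± 16.4 FPKM in the knockout and Perp at 103 ± 13.9 FPKM in wild type hearts against 132 ± 18.1 FPKM in the knockout. Their adjusted p were 0.607, 0.595 and 0.0821. Chosen after their values were seen, Zmat3 (adjusted p = 0.0586), Sesn2 (0.0529) and Ercc5 (0.0600) were higher in every knockout than in every wild type library, which with the 3 raised genes made 6 of 29 without overlap. Of all tested genes 10.3% were higher without overlap, and 20.7% did not overlap in either direction. Bbc3, which encodes the apoptosis inducer PUMA and was also picked afterwards, had the lowest log2 change of the list at -0.24 ± 0.13 (adjusted p = 0.252). Positive log2 changes were found in 17 of the 29 and negative ones in 12, where 48.3% of all tested genes had a positive change. Pmaip1, Gdf15 and Pidd1 had mean levels under 1 FPKM and were not tested.

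**Figure D3:**
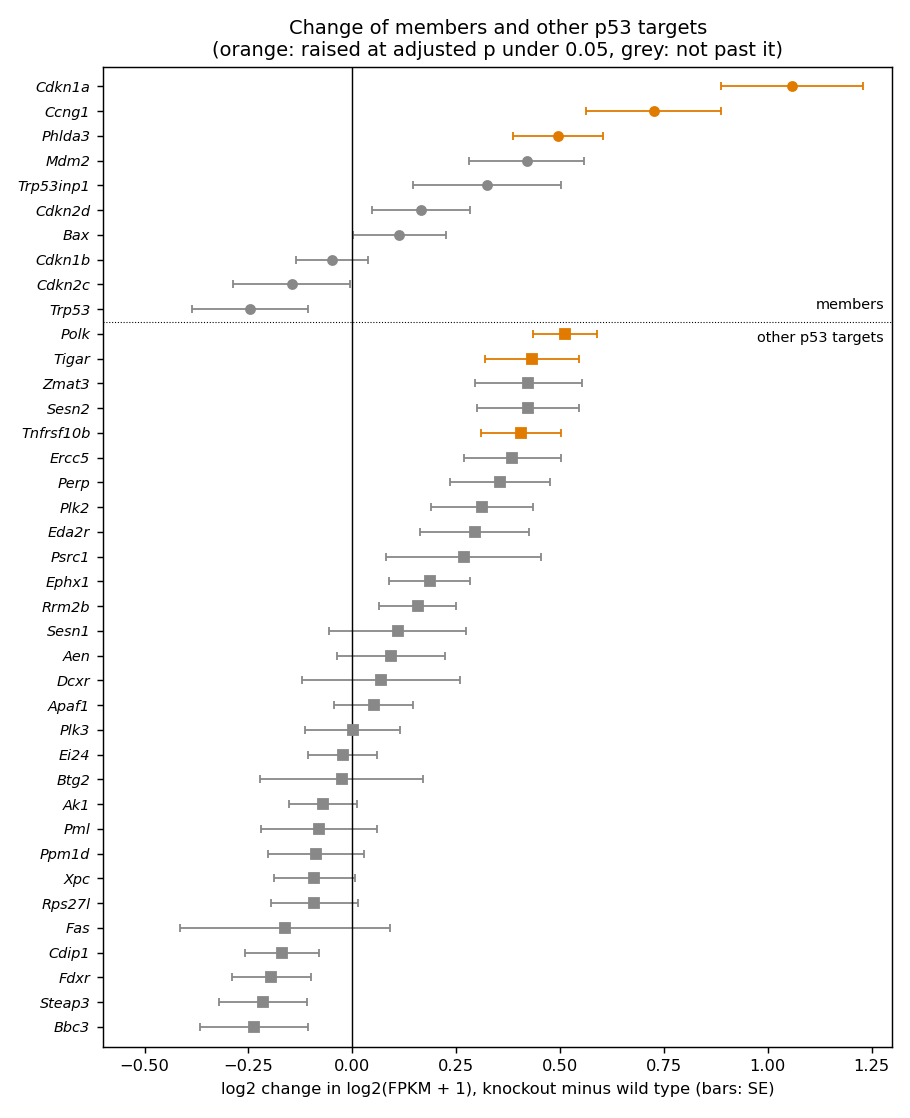
Difference of log2(FPKM + 1) between knockout and wild type hearts (horizontal axis, bars are SE) for the 10 members (circles) and 29 tested other p53 targets (squares), orange where raised at adjusted p under 0.05. Cdkn1a, at 1.06, lies farthest right of these genes, and the other p53 targets lie between -0.24 and 0.51.

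Of 14 tested regulators and relatives of p53 1 rose, 0 fell and 13 did not pass the limma test (1 higher and 1 lower at an unadjusted p under 0.05). The raised share of 7.14% was near the 6.15% of all tested genes, of which 6.01% fell. At an unadjusted p under 0.05, 14.9% of all tested genes were higher and 14.8% lower. Hipk2, a kinase that phosphorylates p53, was at 2.98, 1.36, 2.10 and 0.863 FPKM in wild type hearts against 3.59, 5.59, 10.3 and 8.99 FPKM in the knockout (log2 change 1.49 ± 0.31, adjusted p = 0.0182). The groups were separate but both were spread widely. The call of Hipk2 was lost without wild type replicate 2 (adjusted p = 0.0609), without both replicates 4 (0.0663), with the replicate block (0.0549) and with unmoderated variances (0.0758). Usp7, which stabilises MDM2 and p53, was at 19.2 ± 0.404 FPKM in wild type hearts against 19.6 ± 0.787 FPKM in the knockout (adjusted p = 0.8291). The ubiquitin ligases Rchy1 and Cop1 had adjusted p of 0.584 and 0.648.

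Cyclins, CDKs and proliferation genes, which lie downstream of the inhibitors, were read beside them. Of 12 cyclins and CDKs 1 rose and 0 fell in limma (1 higher and 1 lower at an unadjusted p under 0.05). The raised share was 8.33%, beside 6.15% of all tested genes. At an unadjusted p under 0.05, 14.9% of all tested genes were higher and 14.8% lower. Ccnd2, a D-type cyclin, rose from 18.6 ± 2.94 FPKM to 29.5 ± 3.97 FPKM (adjusted p = 0.0133, and 0.0562 with unmoderated variances). Ccnd1, Ccnd3 and Cdk4 did not pass (adjusted p of 0.141, 0.779 and 0.293). Of 23 proliferation genes 0 rose and 1 fell (0 and 2 at an unadjusted p under 0.05). The lowered share was 4.35%, beside 6.01% of all tested genes. The gene that fell was Cenpf of the kinetochore, from 4.49 ± 0.917 FPKM to 2.27 ± 0.943 FPKM (adjusted p = 0.0396). Its groups overlapped, and its call was lost on leaving out any 1 of wild type replicates 1, 2 and 3 and knockout replicates 2 and 4, with adjusted p up to 0.119. The median log2 change of the 23 genes was -0.18.

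The proliferation genes also differed among the knockout libraries. Knockout replicate 4 had the lowest value of the group for 22 of the 23 genes, and knockout replicate 1 the highest for 21. The median of the list stood at -1.17 on the log2 scale against the wild type mean in knockout replicate 4, at 0.51 in replicate 1, at -0.31 in replicate 2 and at 0.08 in replicate 3. Top2a, which untangles chromosomes in dividing cells, was at 7.91, 14.4, 10.3 and 14.5 FPKM in wild type hearts against 19.8, 8.54, 11.8 and 1.44 FPKM in the knockout. Pcna, the sliding clamp of DNA replication, was at 36.4, 44.4, 40.6 and 43.1 FPKM in wild type hearts against 44.6, 27.7, 35.96 and 19.2 FPKM in the knockout. Rrm2, a subunit of ribonucleotide reductase, was at 12.2, 12.6, 11.98 and 10.2 FPKM in wild type hearts against 21.8, 7.42, 9.79 and 1.97 FPKM in the knockout. Over the groups these 3 genes did not pass the test (adjusted p of 0.622, 0.223 and 0.538). The knockout library with the highest Cdkn1a, Ccng1 and Mdm2 was thus the one with the lowest Top2a, Pcna and Rrm2. In the wild type, replicate 1 had the highest Cdkn1a and the lowest value for 16 of the 23 proliferation genes. Ccng1 and Mdm2, however, were highest in wild type replicate 3. At the other end, Ccng1 and Mdm2 were lowest in knockout replicate 1, but Cdkn1a was lowest in knockout replicate 3. The lowest wild type Cdkn1a was in replicate 4, whereas replicate 2 had the highest value for 15 of the 23 proliferation genes. With 4 libraries a group these are descriptions, and a relation was not tested.

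In the BCL2 family, to which Bax belongs, 2 of 12 tested genes rose and 0 fell in limma, against 6.15% and 6.01% of all tested genes. At an unadjusted p under 0.05, 4 were higher and 1 lower, against 14.9% and 14.8%. Bnip3, a hypoxia-induced receptor for the removal of mitochondria, rose from 56.3 ± 5.13 FPKM to 113 ± 26.8 FPKM (log2 change 0.97 ± 0.15, adjusted p = 0.00510). Bak1, which forms pores as Bax does, rose from 14.8 ± 0.806 FPKM to 19.003 ± 2.39 FPKM (adjusted p = 0.0492). Of the 8 omissions of 1 library, the call of Bak1 survived only that of knockout replicate 4, with adjusted p up to 0.119 in the others. Bnip3l, Mcl1 and Bad did not pass (adjusted p of 0.0682, 0.532 and 0.954).

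Genes of stress and growth arrest moved both ways, with 2 of 14 raised and 1 lowered, against 6.15% and 6.01% of all tested genes. Gadd45a, a damage-induced gene that p53 also activates, stood in this list and not among the p53 targets above, and it fell. It was at 9.40, 7.83, 7.67 and 10.1 FPKM in wild type hearts against 3.86, 4.33, 3.60 and 4.07 FPKM in the knockout (log2 change -0.97 ± 0.10, adjusted p = 0.000831). No knockout value came near the wild type range, and the direction was opposite to that of Cdkn1a. Ndrg1, a hypoxia-responsive gene, rose from 16.6 ± 0.855 FPKM to 30.5 ± 4.68 FPKM (adjusted p = 0.00211). Trib3, a pseudokinase induced by the unfolded protein response, rose from 1.67 ± 0.293 FPKM to 4.04 ± 1.19 FPKM (adjusted p = 0.0129, and 0.0613 with unmoderated variances). Txnip, Atf4 and Ddit4, the most abundant genes of the list that did not pass, had adjusted p of 0.114, 0.741 and 0.648.

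Glucocorticoid-responsive genes were listed because stress hormones also act on Cdkn1a. Here 3 of 10 tested genes rose and 0 fell in limma, against 6.15% and 6.01% of all tested genes (at an unadjusted p under 0.05, 3 higher and 2 lower, against 14.9% and 14.8%). Those that rose were Fkbp5 (adjusted p = 0.0156), Mt2 (0.00846) and Mt1 (0.0484). Mt1 and Mt2, metallothioneins, respond to metals as well. Fkbp5, a co-chaperone of the glucocorticoid receptor, was at 9.63, 7.60, 6.23 and 7.96 FPKM in wild type hearts against 12.3, 18.3, 14.7 and 28.1 FPKM in the knockout, highest in knockout replicate 4. Tsc22d3, another gene of this list, was at 91.7 ± 13.5 FPKM in wild type hearts against 63.8 ± 14.4 FPKM in the knockout (adjusted p = 0.0598), and Pdk4 and Sgk1 had adjusted p of 0.506 and 0.763. The call of Mt1 was lost in 7 of 8 omissions of a library, kept only without knockout replicate 3, with adjusted p up to 0.115. That of Fkbp5 was lost without wild type replicate 2 (0.0521) and with unmoderated variances (0.0723).

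**Figure D4:**
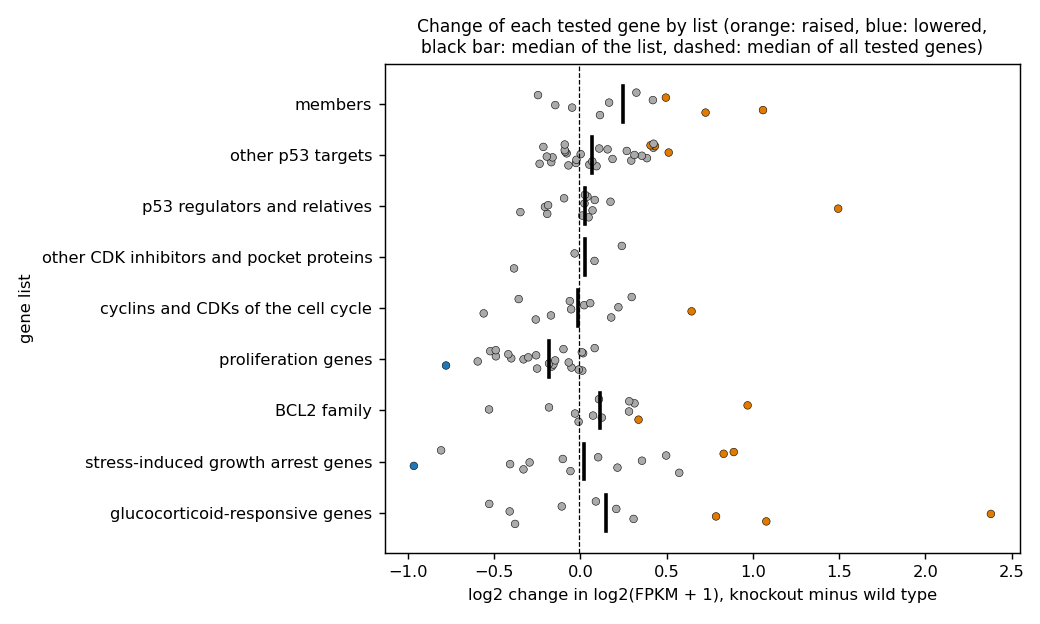
Each point is the difference of log2(FPKM + 1) between knockout and wild type hearts for 1 tested gene, by list, orange where raised and blue where lowered at adjusted p under 0.05. Black bars are list medians, 0.25 for the members, 0.07 for other p53 targets and -0.18 for proliferation genes, and the dashed line is the median of all tested genes at -0.01.

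The 5 genes whose pattern over the 8 libraries was most like that of Cdkn1a were not among the members. Likeness was the root mean square difference from Cdkn1a in log2(FPKM + 1) minus the gene's own wild type mean. The closest of 11389 genes were Prkg1, a cGMP-dependent kinase (0.19), Irs2, an insulin receptor substrate (0.20), Sorbs2, a Z-disc adaptor protein (0.20), Bnip3 (0.21) and Pdk1, a kinase that holds back pyruvate dehydrogenase (0.21). Prkg1 was at 1.40 ± 0.590 FPKM in wild type hearts against 3.55 ± 0.414 FPKM in the knockout. Irs2 averaged 0.877 FPKM in wild type hearts and 2.29 FPKM in the knockout. At such low levels the 1 FPKM added before the log shrinks a change. As ratios of mean FPKM, Prkg1 rose 2.53-fold and Irs2 2.62-fold, against 2.09-fold for Cdkn1a. Whether they stay closest with a smaller added value was not tested. Pdk1 was at 21.2, 17.02, 20.04 and 17.3 FPKM in wild type hearts against 30.3, 34.2, 35.3 and 44.6 FPKM in the knockout, and like Cdkn1a it was highest in wild type replicate 1 and knockout replicate 4. Among the members Ccng1 was closest to Cdkn1a, in place 129 (0.35), before Mdm2 in place 572 (0.50), Phlda3 in place 724 (0.52) and Trp53inp1 in place 983 (0.56). Cdkn2d, Bax, Cdkn1b, Cdkn2c and Trp53 followed in places 3632 to 9824.

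The promoter element was also counted over all genes. Of 8354 tested genes with a window, 6.08% rose and 5.88% fell. The element was held by 43 of them, of which 7 rose and 3 fell, with a median log2 change of 0.08. Named after their values were seen, those that rose were Cdkn1a, Ccng1, Pde4b, Prkg1, Mapre1, Cast and Serpina3n, and those that fell Itm2a, Col6a6 and Vamp4. In the wider list of p53 targets the element stood in 2 of 26 genes with a window, Pml and Rps27l, neither of which passed the test.

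The labels could not be checked on the targeted genes, because whole hearts hold many other cells and the values are per gene and not per exon. Egln1 (PHD2) ranged over 45.2 to 57.9 FPKM in wild type libraries against 52.6 to 63.5 FPKM in the knockout, and Egln3 (PHD3) over 17.96 to 38.7 and 32.6 to 52.8 FPKM. Sequencing depth is unknown. The 8 cardiomyocyte markers summed to 26416 to 31924 FPKM in wild type hearts against 23312 to 27916 FPKM in the knockout, with 0 raised and 1 lowered. Of 10 endothelial markers 0 rose and 3 fell (summed level 564 to 677 and 502 to 598 FPKM), and of 7 fibroblast markers 0 rose and 2 fell (882 to 1046 and 603 to 996 FPKM). Beside these counts, 6.15% of all tested genes rose and 6.01% fell. Of 7 smooth muscle and pericyte markers 1 rose and 0 fell (676 to 1116 and 659.8 to 931 FPKM), and of 6 tested macrophage markers 0 passed in limma, also unadjusted (71.6 to 82.7 and 71.9 to 91.1 FPKM). Red cell genes summed to 2218 to 10577 FPKM in wild type hearts against 365 to 2775 FPKM in the knockout, lowest in knockout replicate 4, with 0 of 5 called in limma and 5 lower at an unadjusted p under 0.05. At that threshold 14.8% of all tested genes were lower. Lung markers reached 1241 FPKM in wild type replicate 4, against 0.481 FPKM or less elsewhere, and Cdkn1a was called without that library too (adjusted p = 0.0203). That library was the lowest of the wild type for Cdkn1a, Cdkn1b, Ccng1 and Mdm2. Without it Ccng1 (log2 change 0.57, limma adjusted p = 0.0331) and Phlda3 (0.0356) were still called. The calls of Tnfrsf10b (0.0559) and Tigar (0.0956) were lost, and Mdm2 was at 0.36 (0.176). Lymphocyte markers summed to at most 3.91 FPKM in any library. The part of these marker levels in the members' changes was not tested.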

How the data were processed

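Total RNA of heart tissue in 4 wild type and 4 knockout samples was sequenced after a TruSeq library preparation, per the labels. Reads went through TopHat2 and Cufflinks with mm10, per the submitters' processing notes. Versions, annotation and strandedness were not stated. The table of 22518 genes names no unit. Its values were taken as the authors' deposited FPKM, and as quantile normalised because the 39 highest ranks hold 1 value in all columns. Depth and counting error cannot be recovered from them.

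Genes averaging 1 FPKM or more were tested on log2(FPKM + 1) in limma 3.58.1 (R 4.3.3) with lmFit and eBayes (trend and robust), no covariate and Benjamini-Hochberg adjustment over 11390 genes. Fold changes on this scale understate the change of low genes. Ratios to Cdkn1a were fitted with robust eBayes but without trend, and again with unmoderated variances (6 degrees of freedom). That fit and the omission of both replicates 4 were added after seeing the data. Alternatives also covered pseudocount, filter, weights, centring, block and single omissions. Cdkn1a was also tested by exact permutation. The members and lists were chosen with earlier results of these data known. Named were all members, the called genes of each other list (at most 6) with up to 3 uncalled genes of highest mean, and the 5 genes most like Cdkn1a. Of marker lists only sums and counts are given. Of 196 listed genes 194 were found, 6 of them through an identifier or synonym, and the others were not analysed here. Promoters came from RefSeq (GRCm38.p6) and positions from GENCODE M21. The limma fits were tested on simulated data. Pandas 2.3.3, scipy 1.17.1 and matplotlib 3.10.9 ran under Python 3.11.15.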

Additional observations from a re-analysis of the deposited data

Results flagged for a closer look

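Among 20 groups of 4 values (the 10 members in each group of libraries), 2 held a library far from the other 3, by a gap above Dixon's critical value for 4 samples, and chance flags about 1 in 20 groups. Both were of Cdkn1a. Wild type replicate 1 stood at 50.5 FPKM, with the other wild type libraries at 30.2 to 33.4 FPKM. Knockout replicate 4 stood at 95.2 FPKM, with the other knockout libraries at 67.2 to 70.9 FPKM. Without wild type replicate 1 the log2 change of Cdkn1a was 1.22 and without knockout replicate 4 it was 0.94.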

How the results depend on the processing

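The rise of Cdkn1a passed the threshold in all 18 alternatives, with a log2 change of 0.87 to 1.22 and an adjusted p of 0.00264 to 0.0421. The number of members raised, 3 as reported, was 1 with the replicate block, 1 with unmoderated variances and 1 to 4 with 1 library left out. The number lowered, 0 as reported, was 0 to 1 with 1 library left out. Of the other p53 targets, 3 rose as reported, 1 with a filter at a mean of 5 FPKM (where Polk and Tnfrsf10b are too low to test), 7 with array weights, 1 with the replicate block, 1 without both replicates 4 and 1 to 4 with 1 library left out, and 0 fell in any of these fits. Gadd45a, which p53 also activates but which stood in another list, fell in all 18 alternatives. Replicate numbers gave no clear pairing, as the deviations of same-numbered libraries correlated at -0.23, 0.01, 0.10 and -0.10 over genes. Of 4 wild type libraries, 1 correlated best with its own number. The labels state no pairing, and 4 correlations are too few to settle whether one existed. Over all genes the count of calls was 1385 as reported, 613 with the replicate block, 684 with unmoderated variances, 2028 with array weights and 575 to 1820 with 1 library left out. The block and the omissions leave fewer degrees of freedom, and other causes of these shifts were not tested. Depth is unknown, so what it limits cannot be given.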
